A study of Mus musculus with 30 samples.

Results

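The odorant receptor (OR) genes described here were Olfr738, Olfr740, Olfr744, Olfr745, Olfr746, Olfr748, Olfr750, Olfr221 and Olfr49, which lie on distal mouse chromosome 14. They were chosen by symbol, as the OR genes of that region that the study's naming table places in no cluster and that follow Olfr736, and they make up 9 of the 564 OR genes with counts and 9 of the 26 counted on chromosome 14. All 9 were counted in all 30 mice and passed the filter on low counts in every comparison, which kept genes whose background-subtracted median in wild-type mice reached 100. The data are NanoString counts, in which a capture probe and a colour-coded reporter probe bind each RNA molecule and molecules are counted without amplification, from 1 μg of total RNA of whole olfactory mucosa, with 1 mouse per lane.

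All mice were 21 days old and fell into 5 groups of 6. The ΔP (Berry) x ΔH mice, written ΔHxΔP below, were homozygous for deletions of both the H and the P element on a mixed C57BL/6J x 129SvEv background, and 5 of the 6 were male. Their companion wild-type strain had the same mixed background and ran on the same cartridge, MK29, with 3 females and 3 males. A second mixed-background wild-type colony, the companion strain of ΔH, ran on cartridge MK37 with 4 females and 2 males. Cartridge MK38 held 6 homozygous ΔOlfr7Δ mice, inbred 129SvEv animals with a chromosome-engineered deletion of an OR gene region on another chromosome (2 females, 4 males), and 6 wild-type 129SvEvTac mice of background 129S6/SvEvTac (4 females, 2 males). The ΔHxΔP mice lacked both elements at once, so the effects of the H and P deletions cannot be told apart, nor can genotype and lane, because wild-type mice ran in lanes 1 to 6 and mutants in lanes 7 to 12. The labels do not say which parental strain each mixed-background mouse carried at chromosome 14. Genotype and parental strain there therefore cannot be told apart in the ΔHxΔP mice.

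Odorant receptors are the membrane proteins by which olfactory sensory neurons detect odorants, and each mature neuron transcribes 1 allele of 1 receptor gene. The H and P elements are enhancers in OR gene clusters, H beside the Olfr1507 to Olfr1513 cluster of chromosome 14 and P in a cluster of chromosome 7, and deleting such an element lowers the expression of nearby receptor genes on the same chromosome. Within the receptors studied here, Olfr738, Olfr740, Olfr744, Olfr745, Olfr746 and Olfr748 are MOR106 receptors, whereas Olfr750 belongs to the MOR103 family, Olfr221 to MOR205 and Olfr49 to MOR118. The MOR names of Olfr744 and Olfr748 end in P, the mark of a pseudogene, but RefSeq (GRCm38.p6) lists all 9 genes as protein coding. Their ligands are not treated here.

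Along chromosome 14 in RefSeq, the 6 MOR106 receptors follow Olfr736, itself a MOR106 gene, in a block of 11 annotated OR genes and 3 other genes of which 6 were measured. Olfr745 is the direct neighbour of Olfr744 and of Olfr746 in that annotation. Olfr750 follows after 25 further annotated genes and Olfr221 after another 50. The 7 genes of the H cluster come next, and Olfr49 lies on their far side, 220 annotated genes beyond Olfr1507.

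The probes set what each count can separate. Compared without gaps over at least 30 aligned bases, the capture and reporter probes of 7 of the 9 receptors had at most 30 bases in common with the same kind of probe for any other OR gene on the panel. Olfr746 and Olfr748 were the exception, and the deposited sequences of their probes are shown because both genes recur below. Capitals mark the bases at which the probes of this pair differ after a shift of 1 base, 1 in the capture probe and 10 in the reporter probe, each over 49 aligned bases:
Olfr746 capture: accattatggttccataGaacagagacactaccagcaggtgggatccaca
Olfr748 capture: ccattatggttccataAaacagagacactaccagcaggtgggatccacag
Olfr746 reporter: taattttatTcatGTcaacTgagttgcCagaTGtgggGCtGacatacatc
Olfr748 reporter: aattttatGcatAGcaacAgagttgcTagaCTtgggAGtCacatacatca
Both probes must bind for a molecule to be counted, and how far each probe pair binds the other transcript was not measured, so the counts of Olfr746 and Olfr748 are uncertain as separate measurements. The RefSeq windows of 250 bases before and 50 bases after the annotated start of these genes were identical at 96.3% of 300 positions, against at most 45.3% for any other pair among the 9. The annotated start is a start codon for both, so the windows are not known to hold their promoters. The probe pair of Olfr740, the receptor with the largest difference between backgrounds, had no match above 28 bases on the panel:
Olfr740 capture: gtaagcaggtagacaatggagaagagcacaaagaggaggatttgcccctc
Olfr740 reporter: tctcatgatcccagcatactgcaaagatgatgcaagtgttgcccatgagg

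Levels are given as scaled counts, that is, counts divided by the geometric mean of the 5 reference genes of the lane (Omp, Cnga2, Adcy3, Gnal and Ano2) and brought to 1 common scale over the 30 lanes. Omp encodes olfactory marker protein and the others act in odorant transduction, and together they mark mature olfactory sensory neurons. On the scale of the positive controls none of them was below 5209 (Ano2) in any lane, and their mean differed by at most 0.18 on the log2 scale between groups compared here. Total OR counts were between 618163 and 1013430 per lane, and the background of a lane (its 8 negative controls, averaged, plus 2 of their SD) was between 32.4 and 56.2 scaled counts. As a check of the deletions, Olfr1507 was between 31 and 53 scaled counts, the level of the background, in the ΔHxΔP mice and at least 2240 in every other mouse. In the ΔOlfr7Δ mice, 27 genes fell under the background in all 6 lanes, and all 27 are on chromosome 9. Because probes differ in efficiency, levels are compared between mice and never between genes. In whole mucosa, fewer neurons choosing a receptor and less RNA per neuron cannot be told apart.

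**Figure D1:**
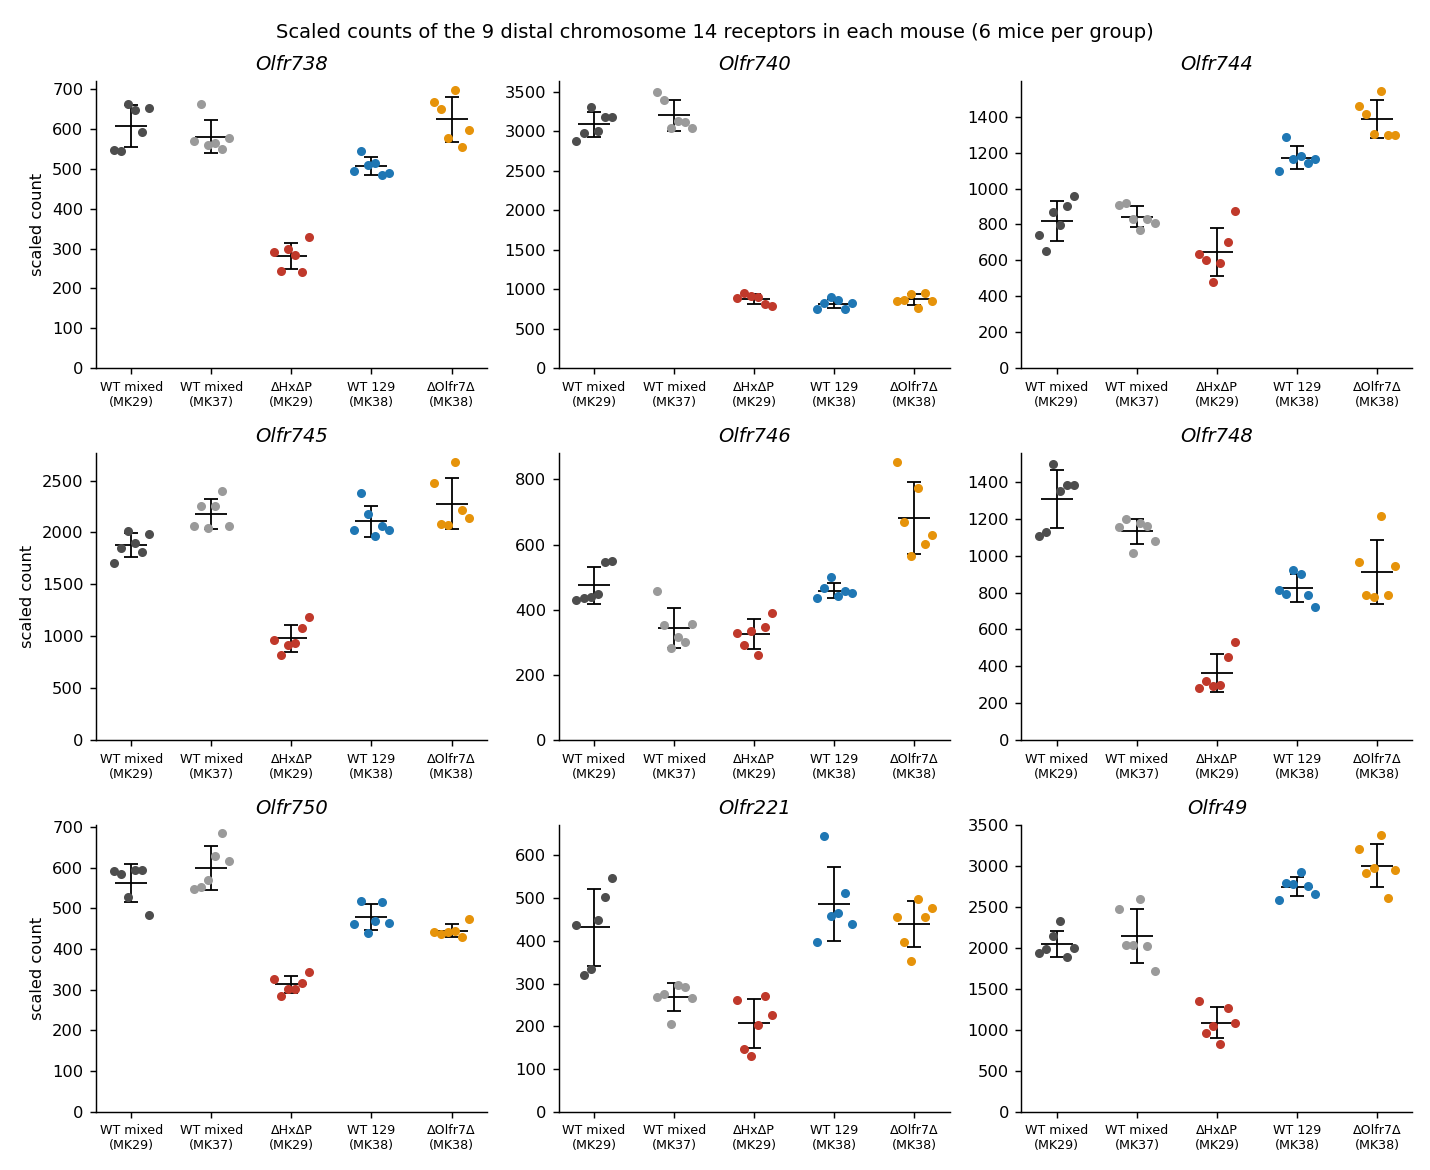
Scaled counts (vertical axis, from 0) of each of the 9 receptors in each mouse, with 6 points per group; the horizontal bar is the group mean and the whiskers are 1 SD. Olfr740 sits between 743 and 947 in the ΔHxΔP, 129 wild-type and ΔOlfr7Δ mice and at 2874 or more in all mixed-background wild-type mice.

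The first question was how the receptors differ in mice that lack the H and P elements. Of the 9 receptors, 8 fell in ΔHxΔP mice against the 12 mixed-background wild-type mice and none rose (limma, adjusted p under 0.05 over 557 OR genes), while 23.9% of all OR genes tested fell and 10.2% rose. The median log2 change of the 9 was -0.96, beside -0.06 over all OR genes tested. Olfr740 and Olfr748 fell furthest, to 0.279 and 0.29 of the wild-type level. Olfr738, Olfr745, Olfr49 and Olfr750 fell to between 0.473 and 0.54 of it, and Olfr221 and Olfr744 fell less.

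Olfr740 had a lowest, median and highest scaled count of 791, 894 and 947 in ΔHxΔP mice, against 2874, 3091 and 3309 in wild-type mice on MK29 and 3036, 3124 and 3498 on MK37. Every ΔHxΔP mouse lay far below every mixed-background wild-type mouse. The log2 change was -1.84 (95% confidence interval -1.95 to -1.73, adjusted p = 5.6e-18).

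Olfr748, listed as a pseudogene in the MOR scheme, ran from 282 to 530.0 with a median of 309 in ΔHxΔP mice, while the MK29 wild types ran from 1106 to 1497 and the MK37 wild types from 1014 to 1201. The groups did not overlap, although ΔHxΔP mice 5 and 6, at 452 and 530, stood above the other 4, which lay between 282 and 321. The log2 change was -1.78 (-2.04 to -1.53, adjusted p = 7.8e-11).

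Olfr738, the first MOR106 gene after Olfr736 on the panel, lay between 241 and 328 (median 287) in ΔHxΔP mice and between 546 and 663 in the 12 wild-type mice. Olfr745 lay between 816 and 1183 (median 948) in ΔHxΔP mice, against 1701 to 2015 on MK29 and 2043 to 2402 on MK37. Both pairs of groups were fully apart. The log2 changes were -1.08 ± 0.0777 (SE, adjusted p = 2.1e-10) for Olfr738 and -1.05 ± 0.0793 (adjusted p = 4.6e-10) for Olfr745.

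Outside the MOR106 block, Olfr750 and Olfr49 showed falls of similar size on opposite sides of the H cluster. Olfr750 lay between 285 and 344 in ΔHxΔP mice and between 483 and 686 in the wild-type mice (log2 change -0.89 ± 0.0726, adjusted p = 1.9e-09). Olfr49 lay between 824 and 1356 in ΔHxΔP mice, with medians of 1062 there, 1990.2 on MK29 and 2038 on MK37. Its lowest wild-type mouse, at 1714, was still above its highest ΔHxΔP mouse, and the log2 change was -0.96 ± 0.0962 (adjusted p = 6.8e-08). In these 6 receptors, Olfr738, Olfr740, Olfr745, Olfr748, Olfr750 and Olfr49, every ΔHxΔP mouse was below every wild-type mouse, as was so for 7.9% of all OR genes tested.

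The other 3 receptors overlapped between the groups. Olfr744 had a median of 618 in ΔHxΔP mice and 831 in each wild-type colony, and its highest ΔHxΔP mouse, number 6 at 874, was above 8 of the 12 wild-type mice. Its log2 change was -0.38 (-0.59 to -0.17, adjusted p = 0.0066), and against the MK29 wild-type mice alone it was -0.36 and did not pass (adjusted p = 0.053). Olfr221, the receptor nearest to the H cluster among the 9, had medians of 215 in ΔHxΔP mice, 443 on MK29 and 272 on MK37. Its log2 change was -0.75 (-1.16 to -0.34, adjusted p = 0.006), but the value depended on the wild-type colony, and against the MK37 mice alone it was -0.41 and did not pass (adjusted p = 0.061).

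Olfr746 was the only one of the 9 that did not pass in this comparison, and its wild-type colonies differed. It had a median of 332 and a range of 262 to 391 in ΔHxΔP mice, beside 443 (431 to 548) on MK29 and 335 (283 to 456) on MK37. The ΔHxΔP mice were therefore below every wild-type mouse of their own cartridge and overlapped those of the other. The log2 change was -0.31 (-0.59 to -0.03, adjusted p = 0.085) against both colonies and -0.55 against the MK29 colony alone (adjusted p = 0.0015), where it passed. Without wild-type mouse 3 or 5 of MK37 it passed as well (-0.36 and -0.35), with values between -0.37 and -0.25 over the fits that left out 1 mouse.

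The study's own method, tTREAT, tests each gene against a fold change threshold rather than against no change, here 1.5 at an unadjusted p of 0.01. By it, 6 of the 9 receptors changed, all of them downward, beside 4.13% of the OR genes tested. They were the 6 whose groups did not overlap, with background-subtracted folds from 0.263 for Olfr748 to 0.506 for Olfr49. By the same test and threshold, the paper counts more called genes in the H cluster than the 7 measured genes its naming table marks. Its text does not name them. With the threshold raised to 2, Olfr740 and Olfr748 remained. Against the MK29 wild types alone Olfr49 lost its call and the other 5 kept theirs. The share of all OR genes called under these alternatives is not given here.

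**Figure D2:**
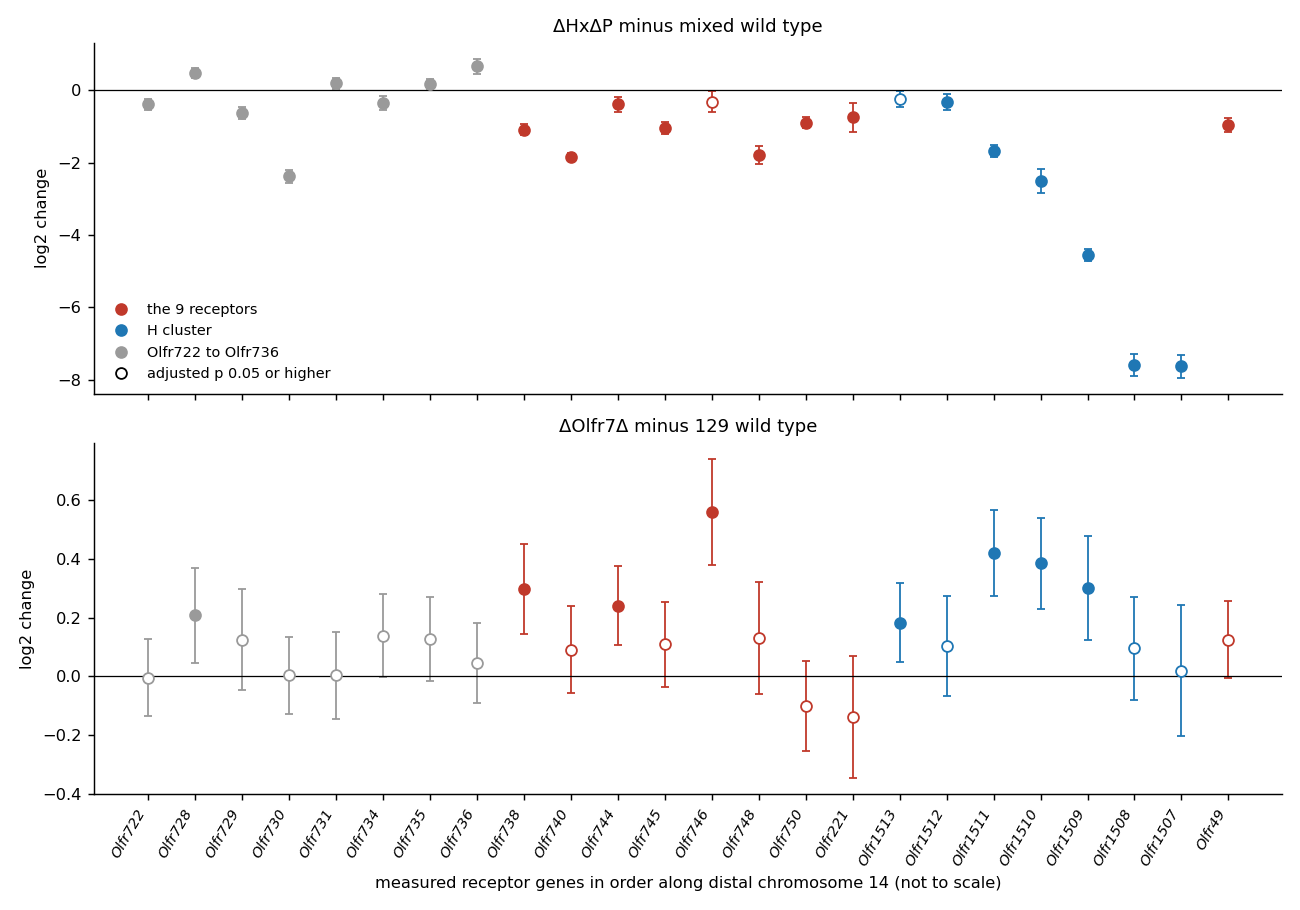
Log2 change of each measured OR gene (vertical axes; points with 95% confidence intervals) in order along distal chromosome 14, for ΔHxΔP minus mixed wild type (top, 6 against 12 mice) and ΔOlfr7Δ minus 129 wild type (bottom, 6 against 6 mice, a finer scale); filled points have an adjusted p under 0.05. In the top panel the 9 receptors lie between -1.84 and -0.31, Olfr736 is above 0 and the H cluster reaches -7.63 at Olfr1507, which was at the level of the background in the mutants.

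The neighbours on the chromosome did not follow a single direction. Olfr736, the measured gene next to Olfr738 and of the same MOR106 family, rose in ΔHxΔP mice, from 235 to 353 scaled counts in the 12 wild-type mice to 387 to 586 (log2 change 0.66 ± 0.104, adjusted p = 4.5e-05). Counting Olfr736, the MOR106 family had 5 of 7 genes lower, 1 higher and 1 that did not pass. Among the 8 genes from Olfr722 to Olfr736, 4 fell and 4 rose. Olfr730 was at -2.37, a larger fall than that of any of the 9, and the other falls were between -0.62 and -0.35. The rises were between 0.18 and 0.66. In the H cluster, 6 of 7 genes fell, and Olfr1513, its nearest measured gene to Olfr221, had a log2 change of -0.24 that did not pass (adjusted p = 0.11). Olfr740, in the MOR106 block, was at -1.84 beside it, and the difference between the 2 genes was not tested. Of the other MOR103 genes that share the family of Olfr750 and lie outside the P cluster, 2 of 12 fell, 1 rose and 9 did not pass.

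The same 9 receptors were then read in a deletion on another chromosome. In ΔOlfr7Δ mice against wild-type 129 mice, 3 of the 9 rose and none fell, while 23.4% of 552 OR genes rose and 12.1% fell (limma, adjusted p under 0.05). The share of the 9 that rose was near that background, and the median log2 change of the 9 was 0.12 beside 0.06 over all OR genes tested. The 3 were MOR106 receptors, and each had its ΔOlfr7Δ mice entirely above the wild-type mice, as did 11.1% of OR genes tested.

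Olfr746 showed the largest of these rises. Its scaled counts ran from 566 to 852 (median 649.6) in ΔOlfr7Δ mice and from 436 to 500.4 (median 453) in wild-type 129 mice (log2 change 0.56, 0.38 to 0.74, adjusted p = 9.1e-06). Olfr738 ran from 555 to 698 against 484 to 546, and Olfr744 from 1296 to 1545 against 1095 to 1286. Their log2 changes were 0.30 ± 0.0753 (adjusted p = 0.0026) and 0.24 ± 0.0661 (adjusted p = 0.005).

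For the other 6 the confidence intervals of the change in ΔOlfr7Δ mice included 0. They were -0.06 to 0.24 for Olfr740, -0.04 to 0.25 for Olfr745, -0.06 to 0.32 for Olfr748, -0.25 to 0.05 for Olfr750, -0.35 to 0.07 for Olfr221 and -0.01 to 0.26 for Olfr49. By tTREAT at a threshold of 1.3, none of the 9 changed, beside 7.07% of OR genes tested, and Olfr746 came closest (fold 1.54, unadjusted p = 0.034). Scaled on the positive controls alone, the reference genes were 0.18 (log2) higher in the ΔOlfr7Δ lanes and the median OR gene was 0.24 higher. In that fit 7 of the 9 receptors passed as higher, beside 51.4% of OR genes tested.

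**Figure D3:**
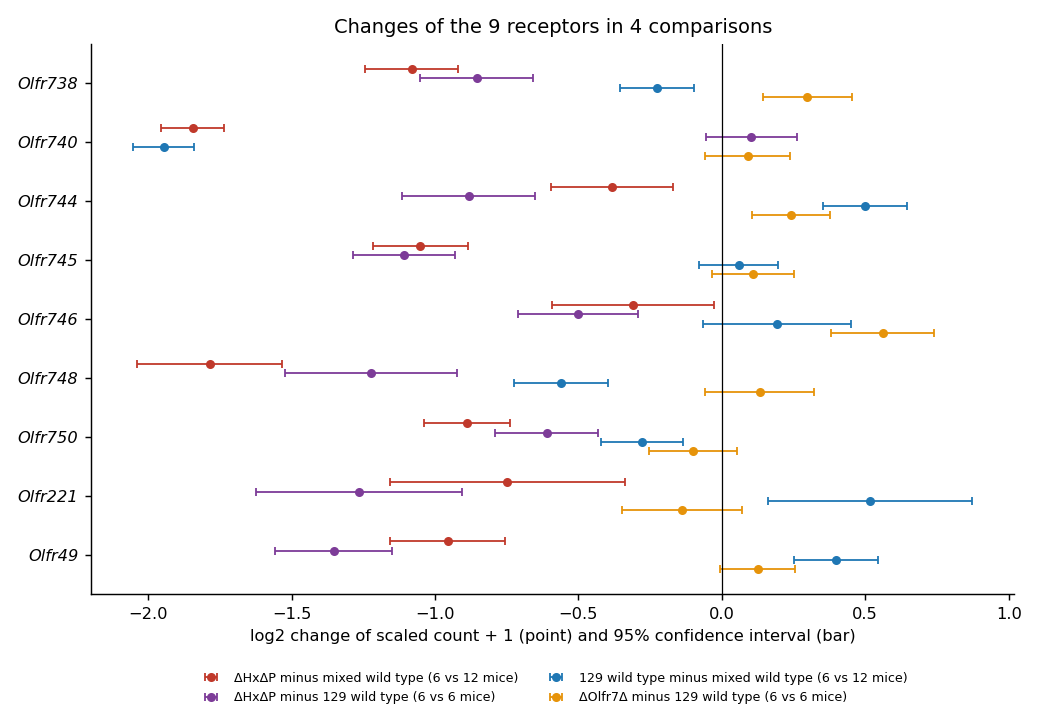
Log2 change (horizontal axis; points) with 95% confidence interval (bars) of each receptor in 4 comparisons, which share the mixed wild-type or the 129 wild-type mice as controls. Olfr740 is at -1.84 in ΔHxΔP against mixed wild type and at -1.95 in 129 wild type against the same mice, and near 0 in ΔHxΔP against 129 wild type.

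The change in ΔHxΔP mice minus the change in ΔOlfr7Δ mice, each against the wild-type mice of its own cartridge and so without a shared control, was below 0 for all 9 receptors and passed for all 9 (limma over 549 OR genes, adjusted p under 0.05), beside 21.1% of OR genes lower and 12.6% higher. The difference was -2.02 ± 0.186 for Olfr748 and -1.91 ± 0.0961 for Olfr740. For Olfr746, where the ΔHxΔP comparison with both colonies had not passed, it was -1.11 ± 0.145 (adjusted p = 1.6e-07). The smallest was that of Olfr744, at -0.60 ± 0.145 (adjusted p = 0.0016). Deletion, background and cartridge cannot be told apart in this difference. For Olfr740 the ΔHxΔP and ΔOlfr7Δ means were 876 and 869 scaled counts. Its wild-type means were 3088 on MK29 and 816 on MK38.

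Levels in wild-type mice also differed between the backgrounds. In wild-type 129 mice against the 12 mixed-background wild-type mice, 4 of the 9 receptors were lower and 3 higher, beside 37.4% of 548 OR genes lower and 33.4% higher. Background, colony and cartridge cannot be told apart in this comparison. Olfr740 stood at 743 to 896 in the 129 mice, with a log2 difference of -1.95 (-2.05 to -1.84, adjusted p = 1.7e-18), that is, 3.85-fold lower. Olfr748 (-0.56), Olfr750 (-0.28) and Olfr738 (-0.23) were lower as well. Olfr221 (0.52), Olfr744 (0.50) and Olfr49 (0.40) were higher, and for Olfr745 and Olfr746 the intervals of the difference, -0.08 to 0.19 and -0.07 to 0.45, included 0. Against the MK29 wild types alone Olfr221 was at 0.18 and did not pass (adjusted p = 0.20) while Olfr745 passed at 0.17 (adjusted p = 0.019), and against the MK37 wild types alone Olfr746 passed at 0.43 (adjusted p = 0.00062). In Olfr740 and Olfr748 every 129 mouse was below every mixed-background mouse, as in 24.8% of OR genes tested. Every 129 mouse was above in Olfr744, as in 13.5% of OR genes. The shares of the 9 that were called and so separated were near those over all OR genes.

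The neighbours differed between the backgrounds too. Olfr736 was 3.08-fold higher in 129 mice, at 844 to 939 scaled counts beside 235 to 353 in the mixed background. Olfr1513 was 1.89-fold higher. The MOR103 genes other than Olfr750 were lower in 14 of 15 cases, with a median log2 difference of -0.97 beside -0.28 for Olfr750.

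Since the mixed-background groups carry 129SvEv ancestry, the ΔHxΔP mice were also set against the wild-type 129 mice, a comparison added after the levels had been seen, in which genotype, background and cartridge cannot be told apart. By it, 8 of the 9 receptors were lower and none higher, beside 35.7% of 546 OR genes lower and 29.5% higher, and in all 8 every ΔHxΔP mouse was below every 129 mouse, as in 23.4% of OR genes. The exception was Olfr740, at a mean of 876 ± 59.8 (SD, n = 6) in ΔHxΔP mice, beside 816 ± 59.6 in 129 wild types and 869 ± 69.6 in ΔOlfr7Δ animals. The log2 difference between ΔHxΔP and wild-type 129 mice was 0.10, with an interval of -0.06 to 0.26, whereas each group differed from the mixed wild type by -1.84 and -1.95. Olfr745 and Olfr49 were at -1.11 ± 0.0844 and -1.35 ± 0.0963 in this comparison, and Olfr746, which overlapped one of the mixed colonies, was at -0.50 ± 0.0993 (adjusted p = 0.00023). Olfr736 was lower in ΔHxΔP than in 129 mice, by -0.96, and higher than in mixed wild-type mice, by 0.66.

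The wild-type colonies of the mixed background gave the spread on which the first comparison rested. Between MK37 and MK29, 2 of the 9 receptors were lower and 1 higher, beside 11% of 553 OR genes lower and 28.8% higher, and colony and cartridge cannot be told apart. Olfr221 was lower on MK37, at 206 to 297 against 319.9 to 548, with no overlap, as in 5.61% of OR genes (-0.67 ± 0.131, adjusted p = 0.00073). Olfr746 was lower as well (-0.47 ± 0.112, adjusted p = 0.003) and Olfr745 higher (0.21 ± 0.0612, adjusted p = 0.0098), where Olfr745 had no overlap, as in 14.1% of OR genes. Olfr740 and Olfr744 had intervals of -0.06 to 0.17 and -0.14 to 0.24. Over all OR genes tested the median difference was 0.10, and it was 0.00 when the lanes were scaled by TMM on the OR genes, where Olfr745 no longer passed.

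Ordered by mean level over the 5 groups, ΔHxΔP was the lowest group for 8 of the 9 receptors and the third lowest for Olfr740. Among those 8 it overlapped with the next group in Olfr744, Olfr746 and Olfr221. ΔOlfr7Δ was the highest group for Olfr738, Olfr744, Olfr745, Olfr746 and Olfr49, and its range was apart from the next group's in Olfr744 and Olfr746. A mixed wild-type colony was the highest for Olfr740, Olfr748 and Olfr750, and wild-type 129 for Olfr221. This ordering was not made over all OR genes, so these counts are a description with no share of the panel beside them.

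Spread between mice of 1 group differed among the receptors. The coefficient of variation was between 5.2% and 8.0% in all 5 groups for Olfr740, and it reached 28.6% for Olfr748 and 27.9% for Olfr221 in ΔHxΔP mice. Mice that were high in 1 of the MOR106 genes were often high in its neighbours. ΔHxΔP mice 5 and 6 were the 2 highest of their group in Olfr744 (702 and 874), Olfr745 (1081 and 1183), Olfr746 (346 and 391) and Olfr748 (452 and 530). The same 2 mice were the lowest in Olfr740, at 816 and 791. Among ΔOlfr7Δ mice, mice 1 and 4 were the highest in Olfr744 (1461 and 1545), Olfr745 (2474 and 2675), Olfr746 (852 and 775) and Olfr748 (964 and 1218), and mouse 4 was the lowest in Olfr740, at 761. Mouse 4 was also the highest in Olfr1513 (2289), but it was the lowest in Olfr736 (843), where mouse 1 was the highest (1005). Both of those ΔHxΔP mice were male, and the pair of ΔOlfr7Δ mice was 1 female and 1 male.

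**Figure D4:**
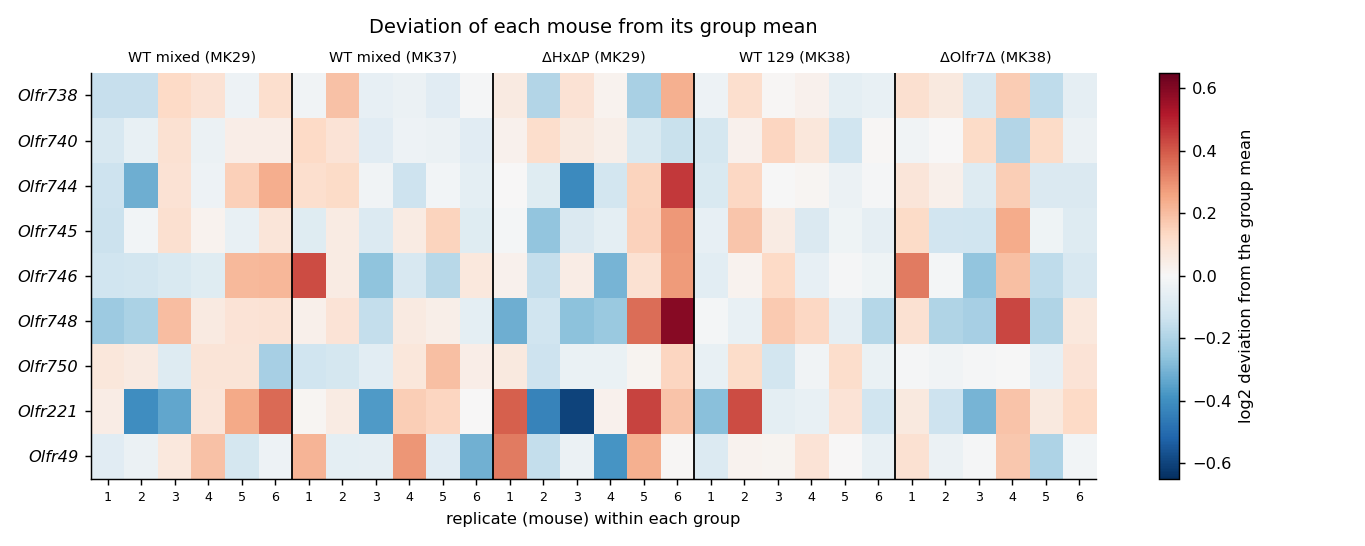
Deviation of each mouse (columns, 6 per group) from the mean of its group on the log2 scale (colour), for each of the 9 receptors (rows). Red runs from Olfr744 to Olfr748 in ΔHxΔP mice 5 and 6 and in ΔOlfr7Δ mice 1 and 4, and not in Olfr740.

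As a description over the 30 mice, after each group's mean was removed, Pearson's r was 0.74 between Olfr745 and Olfr748, 0.73 between Olfr744 and Olfr748 and 0.54 between Olfr746 and Olfr748. The r of Olfr740 with the 5 other MOR106 receptors was between -0.37 and -0.05 in this pooled form, but it differed in sign between groups. Over the 6 mice of a group, it was above 0 with all 5 in each of the 3 wild-type groups, from 0.0023 with Olfr745 on MK37 to 0.90 with Olfr748 on MK29. It was below 0 with all 5 in both mutant groups, from -0.99 (Olfr745) to -0.30 (Olfr738) in ΔHxΔP mice and from -0.93 (Olfr748) to -0.71 (Olfr746) in ΔOlfr7Δ mice. With 6 mice a group these values are a description, and the difference between the groups was not tested. The median over the 15 pairs of MOR106 receptors was 0.45, beside 0.18 over all 150426 pairs of OR genes counted in every lane. Within ΔHxΔP mice alone these medians were 0.42 and 0.34, and within ΔOlfr7Δ mice 0.73 and 0.16. Within the wild-type groups they were 0.74 and 0.28 on MK29, 0.43 and 0.03 on MK37, and 0.49 and 0.28 on MK38. These values share the lane and its scaling factor, and the part that the near-identical capture probes of Olfr746 and Olfr748 have in their r was not tested.

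With the group differences left in, each receptor was set against the 540 other OR genes counted in all 30 mice, and the gene with the highest r is named here as a description. Olfr738 was most like Olfr1511 of the H cluster (r = 0.96) and Olfr744 most like Olfr734 of the same chromosome (0.95). Olfr748 (Olfr6, 0.96), Olfr745 (Olfr706, 0.95), Olfr750 (Olfr713, 0.95), Olfr49 (Olfr704, 0.93), Olfr740 (Olfr477, 0.93) and Olfr221 (Olfr699, 0.88) were most like genes of chromosome 7. The share of chromosome 7 among the 540 genes is not given here. The P element of that chromosome is deleted in the ΔHxΔP mice as well, and a link to it was not tested. Olfr746 was most like Olfr1189 of chromosome 2, at 0.84. With the group means removed these values were between 0.09 and 0.67, so most of the likeness lay between the groups.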

How the data were processed

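The authors deposited raw NanoString counts of 564 OR genes, 5 reference genes, 6 positive and 8 negative controls for 30 lanes. The deposited counts were not normalized; per the methods, the authors scaled lanes on the positive controls and then on the reference genes, subtracted a background of the averaged negative controls plus 2 of their SD and tested log2 values. Each lane's group came from its labels. Here counts were divided by the lane's geometric mean of the reference genes, on 1 scale over all 30 lanes, which makes the step on positive controls cancel. The counts behind each value set its precision, and a group has 6 mice. Whether mice of a group came from separate litters is not known here.

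OR genes whose background-subtracted median in wild-type mice reached 100 were fitted with limma 3.58.1 in R 4.3.3 (lmFit, eBayes with trend) on log2(scaled count + 1), two-sided, with Benjamini-Hochberg adjustment over all OR genes tested and a threshold of 0.05. Scaled counts still hold the background of the lane, so a fold on that scale understates the change of low genes. With the background subtracted, the log2 change in ΔHxΔP mice was -1.21 for Olfr738 and -0.90 for Olfr221, in place of -1.08 and -0.75. That of Olfr748 was then -1.93 and that of Olfr740 -1.90. tTREAT was rewritten from the study's functions. The fits were tested on simulated counts. Alternatives were TMM, median of ratios and positive controls for scaling, background subtraction, a pseudocount of 10, no filter, sex or cartridge as a covariate, single wild-type colonies and leaving out each mouse. edgeR and DESeq2 were planned and not run, because the deposited columns could be recorded only as an unspecified unit.

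The 9 receptors, the gene lists and the tests were chosen with earlier results of these data known. Named genes are the 9, Olfr736, Olfr1513 and Olfr1507, and the gene most like each receptor. Olfr730 is named as well, because of the size of its fall. Olfr6 and other genes named for likeness carry no test. The order of genes came from RefSeq (GRCm38.p6), in which all 26 measured genes of chromosome 14 were found; no coordinates are given, since the files name no build. Figures were drawn with matplotlib 3.10.9.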

Additional observations from a re-analysis of the deposited data

Results flagged for a closer look

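The change in ΔHxΔP mice minus that in ΔOlfr7Δ mice, called the difference between the deletions below, passed for each of the 9 receptors. Deletion, background and cartridge cannot be told apart in it. On the log2 scale it was -1.41 for Olfr738, -1.91 for Olfr740, -0.60 for Olfr744, -1.05 for Olfr745, -1.11 for Olfr746, -2.02 for Olfr748, -0.74 for Olfr750, -0.94 for Olfr221 and -1.05 for Olfr49.

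Of 45 combinations of receptor and group, 3 held a mouse far from the other 5 by Dixon's criterion, and chance gives about 1 in 20. They were Olfr738 in wild-type mouse 2 of MK37 (663 scaled counts, above the others), Olfr750 in ΔOlfr7Δ mouse 6 (474, above) and Olfr221 in wild-type mouse 3 of MK37 (206, below).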

How the results depend on the processing

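For ΔHxΔP against mixed wild type, the 8 receptors that were lower became 7 against the MK37 colony alone, beside 32.5% of OR genes tested. They became 9 with cartridge as a covariate, beside 19.4%, and none was higher in any fit. tTREAT called 2 receptors in place of 6 at a fold threshold of 2 and 5 against the MK29 wild types alone, without Olfr49. The share of all OR genes called in these tTREAT fits is not given here. For ΔOlfr7Δ against wild-type 129, scaling on the positive controls alone gave 7 receptors higher in place of 3 and 1 by tTREAT in place of 0 (Olfr746); Olfr750 and Olfr221 then turned to 0.078 and 0.040, while Olfr736 turned to -0.00664 with median of ratios and Olfr1507 to -0.017 with TMM and -0.034 with median of ratios. Between the mixed wild-type colonies, no receptor was higher with TMM or median of ratios (0 in place of 1) and 4 were lower with median of ratios in place of 2; Olfr740, Olfr744, Olfr750 and Olfr49 turned to -0.042, -0.044, -0.00315 and -0.035 with TMM and to -0.058, -0.060, -0.020 and -0.051 with median of ratios, and Olfr738 to 0.025 on the positive controls. For wild-type 129 against mixed wild type, Olfr745 turned to -0.0057 on the positive controls and -0.049 against MK37 alone, and Olfr746 to -0.044 against MK29 alone. Over all OR genes tested, the shares lower and higher became 18.5% and 21.9% in ΔHxΔP against mixed wild type and 17.9% and 17.3% for the difference between the deletions with median of ratios, 7.44% and 51.4% in ΔOlfr7Δ against 129 on the positive controls, 20.4% and 18.6% between the colonies with TMM, and, on the positive controls, 40% and 23.6% in wild-type 129 against mixed wild type and 26.6% and 35.3% in ΔHxΔP against 129. With median of ratios the shares between the colonies were 21.7% lower and 16.5% higher. None of the values that turned sign had passed in either fit. The cause was not tested.

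Leaving out 1 mouse kept every count within 1.5 times its value: between 8 and 9 receptors lower in ΔHxΔP mice and 6 by tTREAT, between 3 and 4 higher in ΔOlfr7Δ mice, between 2 and 3 lower and 1 higher between the colonies, 4 lower and 3 higher in wild-type 129 mice, and 9 lower for the difference between the deletions. The changes of Olfr1507 in ΔOlfr7Δ mice ran from -0.075 to 0.14 and the colony difference of Olfr744 from -0.013 to 0.098. The change of Olfr49 in ΔOlfr7Δ mice passed without mutant mouse 5 (0.16), that of Olfr1513 in ΔHxΔP mice without wild-type mouse 1 of MK29 (-0.27) or ΔHxΔP mouse 6 (-0.31), and the colony difference of Olfr748 without mouse 1 (-0.25) or 2 (-0.24) of MK29. Of 667 values under the other alternatives, 621 kept their direction and side of the threshold. No paired analysis was possible because the groups share no replicate pairing in the labels. edgeR and DESeq2 were not run. The 6 mice of a group limit the precision.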
